A study of Mus musculus with 6 samples.

Results

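The genes described here are 9 transcripts tied to regeneration of the intestinal epithelium and to the coactivators YAP and TAZ: Clu, Hopx, Il33, Ccn1 (formerly Cyr61), Ccn2 (formerly Ctgf), Ly6a, Anxa1, Yap1 and Wwtr1, which encodes TAZ. They were taken by name from the 53379 genes counted in each library, and each name matched 1 gene. RNA was sequenced from adult small intestinal stem cells that had been sorted for high fluorescence of the Lgr5-EGFP reporter, from the proximal part of the small intestine of C57BL/6 mice. The 3 control libraries carry the genotype Lgr5-EGFP-IRES-CreERT2;Rosa-tdTomato, and the 3 libraries labelled Klf5-KO carry the same alleles with Klf5fl/fl. Both groups received tamoxifen, 1 mg per injection on 5 days, so the controls share the Cre and the drug. Cre was driven from the Lgr5 locus, so recombination was aimed at the Lgr5-expressing cells and their progeny. The time from the last injection to the sort is not given in the sources used here, nor is the number of mice behind the replicates, so p-values describe the spread among these 6 libraries. The comparison asks which of these transcripts differ in stem cells after deletion of Klf5, a Kruppel-like transcription factor.

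The intestinal epithelium replaces lost stem cells after injury from cells that switch on a programme resembling that of the fetal gut. YAP and TAZ carry the signal: the Hippo kinases hold them in the cytoplasm by phosphorylation, and when they are released they enter the nucleus and bind TEAD factors at DNA, where they raise genes such as Ccn1 and Ccn2. Clu, which encodes the secreted chaperone clusterin, marks the revival stem cells that appear after damage, Hopx marks slow-cycling reserve cells, and Ly6a (Sca-1) and Anxa1 mark fetal-like regenerating epithelium.

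Total counts ran from 61563625 to 77666540 per library. Mitochondrial genes took 1.97 to 2.69% of counts in the controls and 3.00 to 3.36% in the libraries labelled Klf5-KO, and the rRNA-like genes Gm26917 and Gm42418 took 18.3% in Klf5-KO replicate 2 and 13.5 to 16.4% in the others. With both kinds of gene removed, 5 members were called higher, and Clu, Hopx, Il33, Ccn2 and Wwtr1 had log2 fold changes of 2.65, 0.85, 1.13, 1.31 and 0.97. The targeted gene was higher in the libraries labelled Klf5-KO: Klf5 stood at 480, 512 and 547 CPM (read counts relative to library sizes scaled by TMM) across the controls and at 880, 918 and 877 CPM across the libraries labelled Klf5-KO, where runs of 3 values here and below follow the replicate numbers 1, 2 and 3. Since the count covers all exons, deleted or not, it cannot test the labels. Directions are therefore given for the libraries labelled Klf5-KO, set against those labelled control. The sorted cells carried their defining markers, with a summed level of Lgr5, Olfm4, Ascl2, Smoc2, Slc12a2 and Axin2 of 8018 to 11082 CPM in the controls and 3810 to 5252 CPM in the libraries labelled Klf5-KO, and 5 of these 6, all but Slc12a2, were called lower. Paneth cell transcripts set control replicate 3 apart: 5 markers summed to 14110 CPM there, to 1241 and 1462 CPM in control replicates 1 and 2, and to 6400 to 8115 CPM in the libraries labelled Klf5-KO. In bulk samples like these, a larger number of cells of a type and more RNA per cell cannot be told apart.

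Upstream sequence is shown because YAP and TAZ reach DNA through TEAD factors. RefSeq start sites (build GRCm38.p6) were at hand for 6 of the 9 genes: Hopx, Il33, Ccn1, Anxa1, Yap1 and Wwtr1. The 250 bases before each start are printed 5′ to 3′ for 5 of these genes, with the TEAD core letters CATTCC, or GGAATG where the match is on the other strand, in capitals.
Ccn1 (chr3:145649986-145650235, minus strand): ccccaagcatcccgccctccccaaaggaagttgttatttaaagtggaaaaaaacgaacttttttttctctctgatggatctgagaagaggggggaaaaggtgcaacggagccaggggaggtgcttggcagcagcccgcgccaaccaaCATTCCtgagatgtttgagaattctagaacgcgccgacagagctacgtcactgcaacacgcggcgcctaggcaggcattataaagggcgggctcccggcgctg
Il33, first start (chr19:29924863-29925112, plus strand): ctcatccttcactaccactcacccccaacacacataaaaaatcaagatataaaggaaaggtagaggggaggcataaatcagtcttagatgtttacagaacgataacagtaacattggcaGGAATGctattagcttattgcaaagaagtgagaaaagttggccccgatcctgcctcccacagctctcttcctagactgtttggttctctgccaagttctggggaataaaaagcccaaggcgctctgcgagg
Il33, internal start (chr19:29945540-29945789, plus strand): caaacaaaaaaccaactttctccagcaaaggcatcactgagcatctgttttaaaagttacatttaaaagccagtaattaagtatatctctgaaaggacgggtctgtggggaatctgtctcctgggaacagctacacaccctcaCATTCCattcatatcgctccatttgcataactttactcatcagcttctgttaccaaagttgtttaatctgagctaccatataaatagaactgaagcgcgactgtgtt
Wwtr1 (chr3:57575911-57576160, minus strand): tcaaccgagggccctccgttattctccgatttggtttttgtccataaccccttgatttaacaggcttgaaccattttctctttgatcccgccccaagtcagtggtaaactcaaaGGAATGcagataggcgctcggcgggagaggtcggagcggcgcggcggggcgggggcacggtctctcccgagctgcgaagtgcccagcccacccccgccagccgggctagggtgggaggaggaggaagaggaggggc
Yap1 (chr9:8004597-8004846, minus strand): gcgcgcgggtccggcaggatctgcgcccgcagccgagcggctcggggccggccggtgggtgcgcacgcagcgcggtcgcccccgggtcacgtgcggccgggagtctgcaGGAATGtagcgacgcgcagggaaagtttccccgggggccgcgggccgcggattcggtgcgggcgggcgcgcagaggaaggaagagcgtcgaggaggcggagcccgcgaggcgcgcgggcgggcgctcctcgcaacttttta
Hopx (chr5:77115124-77115373, minus strand): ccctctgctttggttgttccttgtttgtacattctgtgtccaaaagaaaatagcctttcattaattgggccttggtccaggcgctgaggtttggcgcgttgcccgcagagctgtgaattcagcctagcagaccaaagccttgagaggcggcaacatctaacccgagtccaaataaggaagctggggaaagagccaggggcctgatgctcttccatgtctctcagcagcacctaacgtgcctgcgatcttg
Of the 6 genes, 5 held the TEAD core in a window, against 14.4% of all 27025 genes with a window of the same length. The first base of the match lay 103 bases before the Ccn1 start, 131 and 107 bases before the Il33 starts, 136 and 170 bases before the Wwtr1 starts and 141 before the Yap1 start. Anxa1 held the core 236 bases before its start. Neither Hopx window held it. The letters CCNCNCCC, a form of the GC-rich element of Kruppel-like factors, were searched on both strands and can overlap each other. They occurred in the Wwtr1 windows alone among the 6 genes, against 48.5% of all genes. A match is a run of letters and no evidence of binding.

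Members of the group that passed the test all rose. Of the 9 genes, 8 passed the filter on low counts, and 5 of these were called higher in the libraries labelled Klf5-KO (Clu, Hopx, Il33, Ccn2 and Wwtr1), against 13.3% of all 19339 tested genes called higher (edgeR's quasi-likelihood test, Benjamini-Hochberg adjusted p below the threshold of 0.05). None was called lower, nor at an unadjusted p below that threshold, nor with DESeq2 or limma-voom. In 6 of the 8 the lowest Klf5-KO library exceeded the highest control, against 22.2% of all tested genes. Ly6a entered the test through its Klf5-KO counts. The count of 5 fell to 3 without Klf5-KO replicate 1 and to 3 without Klf5-KO replicate 3, where in each case Il33 and Ccn2 were no longer called.

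**Figure D1:**
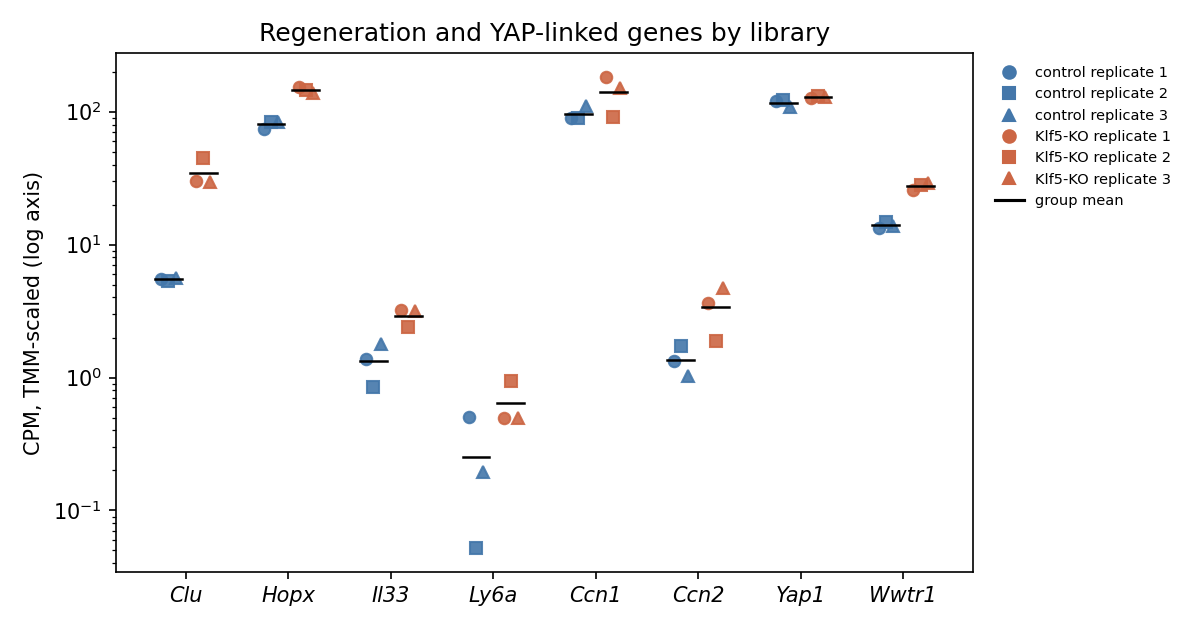
CPM on a log axis for 8 genes in each of the 6 libraries, with symbols for replicates and a line at each group's mean. Clu, Hopx, Il33, Ccn2, Yap1 and Wwtr1 have no overlap between the groups, and the Yap1 means lie close together. Anxa1, with 0 counts in some libraries, is not drawn.

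Clu had the largest fold change of the 8 tested members. The gene (ENSMUSG00000022037.15, mm10 chromosome 14, 65968483 to 65981547, 14 exon blocks on the plus strand) had 404, 414 and 347 counts across the controls and 2063, 2858 and 2137 counts across the Klf5-KO libraries. On the CPM scale these were 5.55, 5.37 and 5.60 against 30.1, 44.5 and 29.5. The controls were nearly level with each other and Klf5-KO replicate 2 was the highest library. The fitted rise was 6.30-fold (log2 fold change 2.66, 95% interval 2.28 to 3.03, adjusted p = 1.4e-05, edgeR). Control replicate 3, the library richest in Paneth cell transcripts, was at a Clu level close to that of the other controls. The part of Paneth cells in the Clu values was not tested.

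Hopx, a homeodomain-like protein without DNA binding of its own, was the most abundant member per exon length. Its gene (ENSMUSG00000059325.14, chromosome 5, 77086988 to 77115121, minus strand, 3 exon blocks) stood at 73.9, 84.2 and 83.3 CPM across the controls and at 152, 145 and 138 CPM across the Klf5-KO libraries. The groups were apart and each was tight. Hopx rose 1.80-fold (log2 fold change of 0.85 with an SE of 0.09, adjusted p = 2.0e-04, edgeR). A total of 412 exonic bases lie opposite the antisense transcript Hopxos, whose reads the strand-specific counting kept separate.

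Clu and Hopx rose, and 3 of the 4 other listed genes ascribed to reserve stem cells were called lower. In the list of 6 such genes (Hopx, Clu, Bmi1, Tert, Lrig1, Mex3a), 2 rose, 3 fell and 1 was not called, with a median log2 fold change of −0.20 against −0.01 over all tested genes, of which 13.3% were called higher and 12.5% lower. Mex3a, an RNA-binding protein of slow-cycling progenitors, fell from 21.6 ± 3.5 to 9.82 ± 0.84 CPM (SD, n = 3 each). Its log2 fold change was −1.14 (adjusted p = 5.0e-04, edgeR). Lrig1, which restrains ErbB signalling, fell from 428 ± 22 to 332 ± 15 CPM (log2 fold change −0.36, adjusted p = 0.017, edgeR). Tert, the catalytic subunit of telomerase, differed by −0.51 on the log2 scale (adjusted p = 0.032, edgeR), and Bmi1, a Polycomb subunit, differed by −0.04 (0.84). Leaving out control replicate 2 ended the Lrig1 call (adjusted p = 0.064), as did leaving out Klf5-KO replicates 2 or 3 (0.084 and 0.072). That of Tert was lost without control replicates 1, 2 or 3 or Klf5-KO replicates 2 or 3 (adjusted p = 0.054, 0.107, 0.057, 0.099 and 0.075, edgeR).

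Il33, an alarmin of the interleukin-1 family that is stored in the nucleus, was scarce and rose. Its gene (ENSMUSG00000024810.16, chromosome 19, 29925114 to 29960718, plus strand, 10 exon blocks) gave 100, 66 and 110 counts across the controls and 219, 153 and 229 counts across the Klf5-KO libraries. These were 1.37, 0.856 and 1.78 CPM against 3.20, 2.38 and 3.16 CPM. The lowest Klf5-KO value, in replicate 2, lay above the highest control value, in replicate 3. The rise was 2.19-fold (log2 fold change of 1.13 with an SE of 0.28, adjusted p = 0.017, edgeR). Without Klf5-KO replicate 1 the adjusted p was 0.061, and without Klf5-KO replicate 3 it was 0.057.

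The surface and fetal-like markers Ly6a and Anxa1 were near the limit of detection. Ly6a, a GPI-anchored antigen (ENSMUSG00000075602.10, chromosome 15, 74994877 to 74998031, 4 exon blocks on the minus strand), had 37, 4 and 12 counts across the controls and 34, 60 and 36 counts across the Klf5-KO libraries. The groups overlapped, since control replicate 1 at 0.508 CPM exceeded Klf5-KO replicates 1 and 3 at 0.497 CPM each. The log2 fold change was 1.35 with a 95% interval of −0.04 to 2.73 (adjusted p = 0.14, edgeR). Without control replicate 1 it was 2.42 (adjusted p = 0.021). Control replicate 1 also held the highest levels of the T cell genes Cd3e and Cd8a, at 1.33 and 1.11 CPM against at most 0.742 CPM for either gene in any other library, and their part in the Ly6a value was not tested. Ly6a belongs to a cluster of related genes, and reads that matched several of them could have gone uncounted, so its level is uncertain. How many reads this concerns was not measured.

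Anxa1, a phospholipid-binding protein that dampens inflammation (ENSMUSG00000024659.14, chromosome 19, 20373428 to 20390944, 13 exon blocks on the minus strand), had 0, 6 and 4 counts across the controls and 0, 12 and 0 counts across the Klf5-KO libraries. It did not pass the filter and was not tested. The counts of 0 allow up to 0.0412 CPM in control replicate 1 and up to 0.0438 and 0.0414 CPM in Klf5-KO replicates 1 and 3, with a floor of 3 counts that covers counting error alone. No fold is given at these counts.

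Other annexins moved where Anxa1 was barely detected. Of 12 annexin genes, 9 were tested, of which 4 rose and 2 fell, with a median log2 fold change of 0.77. The share called higher among all tested genes was 13.3% and the share called lower 12.5%. Anxa6, a large annexin of the plasma membrane and endosomes, stood at 2.19, 2.37 and 2.37 CPM across the controls and at 25.4, 31.8 and 22.7 CPM across the Klf5-KO libraries, a rise of 11.5-fold (log2 fold change of 3.52 with an SE of 0.15, adjusted p = 2.4e-06, edgeR). As with Clu, Klf5-KO replicate 2 was the highest library. Anxa9 rose from 0.654 ± 0.103 to 3.74 ± 0.28 CPM (log2 fold change 2.51), Anxa5, the phosphatidylserine binder used to stain dying cells, from 3.21 ± 1.12 to 7.58 ± 1.24 CPM (1.24), and the intestinal annexin Anxa13 from 41.9 ± 5.3 to 71.6 ± 16.6 CPM (0.77). Anxa7 and Anxa11 fell, with log2 fold changes of −0.71 and −0.51 (adjusted p = 0.017 and 0.015, edgeR). Both calls were lost without control replicate 2 (adjusted p = 0.065 for Anxa7 and 0.062 for Anxa11) or Klf5-KO replicate 3 (0.067 and 0.066), and that for Anxa7 also without Klf5-KO replicate 1 (0.074).

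Ly6a's relatives were mostly too low to be tested. Of 12 family members, 4 were tested (Ly6a, Ly6e, Ly6g6c and Lypd8), and Lypd8 and Ly6e rose. Over all tested genes 13.3% were called higher and 12.5% lower. Ly6g6c differed in the other direction and was not called (log2 fold change −0.91, adjusted p = 0.13, edgeR). Lypd8, a secreted protein that keeps flagellated bacteria from the epithelium, rose from 563 ± 65 to 970 ± 49 CPM (log2 fold change of 0.78 with an SE of 0.12, adjusted p = 0.0015, edgeR). Ly6e differed by 0.60 on the log2 scale (adjusted p = 0.036, edgeR) with overlapping groups, and its call was lost without control replicates 1 or 2 or Klf5-KO replicates 2 or 3 (adjusted p = 0.079, 0.12, 0.104 and 0.100).

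Genes of the wider fetal-like programme were called in both directions. Of 26 listed, 16 were tested, 5 rose and 3 fell, against 13.3% and 12.5% of all tested genes, with a median log2 fold change of 0.35, and 2 of the 5 were Clu and Il33. The others that rose were Cxadr, the coxsackievirus and adenovirus receptor of cell junctions, from 83.0 ± 0.9 to 128 ± 10 CPM (log2 fold change 0.63, adjusted p = 8.5e-04, edgeR), Anxa5, and the membrane-associated protein gene Basp1 (1.32). Krt7, a keratin of simple ducts, fell from 136 ± 18 to 28.7 ± 5.0 CPM (log2 fold change −2.24, adjusted p = 1.9e-05, edgeR). Tinagl1, a matricellular glycoprotein, and the calcium-binding protein gene S100a6 also fell, with log2 fold changes of −1.21 and −1.51. Among those too low to be tested were Spp1, Gja1, Msln, Anxa8, Epgn, Col4a1, Col4a2, Ly6d and Anxa1. The Basp1 call was lost without Klf5-KO replicate 1 (adjusted p = 0.057).

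Ccn1 and Ccn2 are secreted matricellular proteins and textbook targets of YAP and TAZ. Ccn1 (ENSMUSG00000028195.4, chromosome 3, 145646976 to 145649981, minus strand, 5 exon blocks) stood at 90.4, 89.0 and 111 CPM across the controls and at 184, 91.9 and 150 CPM across the Klf5-KO libraries. Klf5-KO replicate 2 lay among the controls while the other two lay above them. The log2 fold change was 0.55 with a 95% interval of 0.08 to 1.03, and it did not pass once adjusted over all genes (adjusted p = 0.085, edgeR). Without Klf5-KO replicate 2 it was 0.81 (adjusted p = 0.0048), and with DESeq2 on all libraries the adjusted p was 0.028.

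Ccn2 (ENSMUSG00000019997.11, chromosome 10, 24595442 to 24598683, plus strand, 3 exon blocks) was near the low end of the group, with 97, 132 and 64 counts across the controls and 247, 121 and 340 counts across the Klf5-KO libraries. On the CPM scale these were 1.33, 1.71 and 1.03 against 3.61, 1.88 and 4.70. Klf5-KO replicate 2 was again the lowest of its group and lay just above the highest control. Ccn2 rose 2.49-fold (log2 fold change of 1.32 with an SE of 0.33, adjusted p = 0.019, edgeR). The call was lost without Klf5-KO replicate 1 (adjusted p = 0.063) or Klf5-KO replicate 3 (0.076). Ccn3, Ccn4, Ccn5 and Ccn6, the rest of the family, were too low to be tested.

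**Figure D2:**
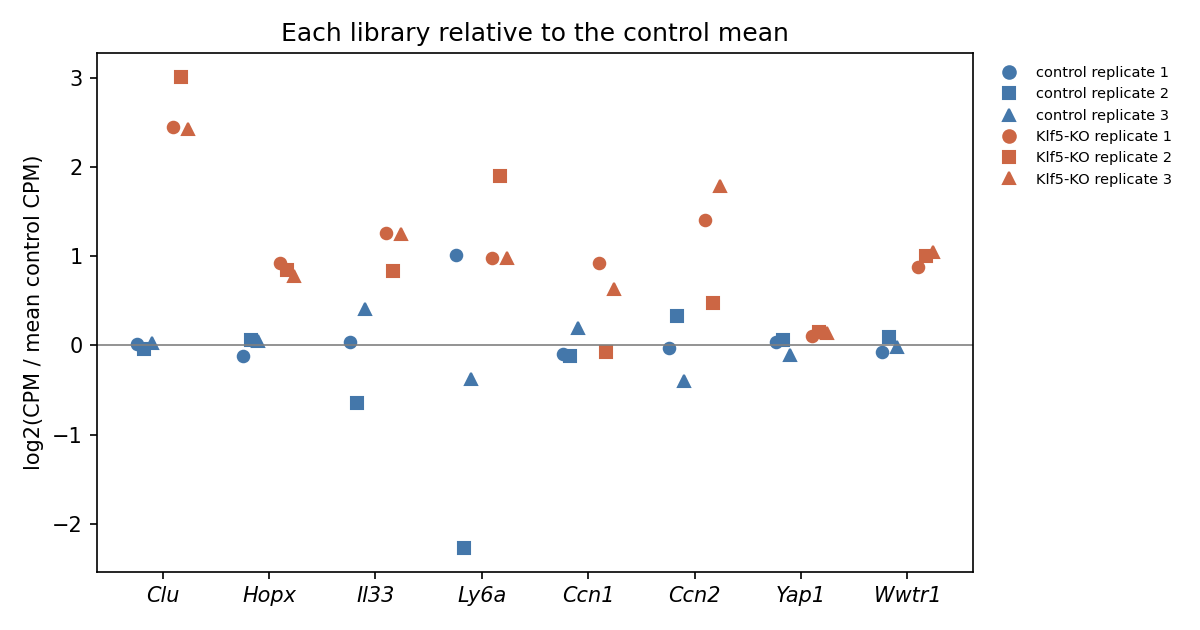
Log2 ratio of each library's CPM to the mean CPM of the 3 controls, for 8 genes. Klf5-KO replicate 2 (squares) is the highest of its group for Clu and Ly6a, at 3.02 and 1.89, and the lowest for Il33, Ccn1 and Ccn2, at 0.84, −0.07 and 0.47. It is also the highest for Yap1, by little, at 0.15, and lies in the middle for Hopx and Wwtr1.

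The libraries labelled Klf5-KO therefore differed among themselves in a way that split the genes. Replicate 2 was the highest of the 3 for Clu and Ly6a and the lowest for Il33, Ccn1 and Ccn2. It was also the highest for Yap1, by little (126, 130 and 129 CPM), and lay in the middle for Hopx and Wwtr1. The summed level of 5 enterocyte markers was 1019, 433 and 615 CPM across the Klf5-KO libraries and 197 to 386 CPM in the controls, with 2 of the 5 (Sis and Fabp1) called higher. The summed level of 5 tuft cell markers was 169, 125 and 89.6 CPM across the Klf5-KO libraries and 59.0 to 79.6 CPM in the controls, with 3 of the 5 (Dclk1, Rgs13 and Matk) called higher. Goblet cell markers summed to 2048 to 2462 CPM in the controls and 987 to 1308 CPM in the libraries labelled Klf5-KO, with 2 of the 5 called lower. Enteroendocrine markers summed to 131 to 273 and 72.6 to 82.4 CPM, with 4 of the 5 called lower. The part of these cells in the Clu, Hopx, Il33, Ccn1 and Ccn2 values was not tested.

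Ccn1 is also an immediate early gene that cell dissociation can raise. A list of 9 dissociation stress genes was summed. It held the immediate early genes Fos, Fosb, Jun, Junb, Egr1, Atf3 and Ier2, and the heat shock genes Hspa1a and Hspa1b. The sum was 3233, 2800 and 4175 CPM across the controls and 3901, 3487 and 4050 CPM across the Klf5-KO libraries. The group ranges overlapped. Control replicate 3 was the highest control for both Ccn1 and these genes, and Klf5-KO replicate 2 was the lowest of its group for both. Control replicate 3 was the highest library of all for the summed genes, with Ccn1 at 111 CPM. Klf5-KO replicate 1 was the highest library for Ccn1, at 184 CPM, with the summed genes at 3901 CPM. That order of the sum depended on the heat shock genes. Hspa1a stood at 44.7, 173 and 220 CPM and Hspa1b at 84.3, 300 and 379 CPM across the Klf5-KO libraries. Klf5-KO replicate 1 was the highest library for Fos, Jun and Junb, and control replicate 3 for Fosb, Egr1, Atf3 and Ier2. The part of dissociation in the Ccn1 value was not tested.

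Il33, Ccn2 and Ly6a are also made by stromal or endothelial cells. The summed level of 8 fibroblast and smooth muscle markers was 0.962 to 1.15 CPM in the controls and 0.935 to 1.53 CPM in the libraries labelled Klf5-KO, below Il33 and Ccn2 in each Klf5-KO library but above Il33 in control replicate 2 (1.02 against 0.856 CPM) and above Ccn2 in control replicate 3 (1.15 against 1.03 CPM), with 1 of the 8 called higher and 1 called lower. The 1 called higher was Col1a2, a collagen chain, with 5, 1 and 3 counts across the controls and 34, 36 and 63 counts across the Klf5-KO libraries. It entered the test through its Klf5-KO counts, so these are given as values only. Its partner chain Col1a1 had 19, 44 and 40 counts and 20, 22 and 26 counts and was not called. The 1 called lower was the smooth muscle myosin gene Myh11, with 33, 19 and 25 counts and 8, 7 and 13 counts. It entered the test through its control counts, so these too are given as values only. Col3a1, Dcn, Lum, Pdgfra and Acta2, which define those cells, were too low to be tested. Endothelial markers summed to 2.23 to 3.32 CPM in the controls and 3.80 to 5.06 CPM in the libraries labelled Klf5-KO. That sum was above Il33 in every library and above Ccn2 in all but Klf5-KO replicate 3 (3.80 against 4.70 CPM). Egfl7 was called higher, at 0.996 ± 0.265 and 3.10 ± 0.37 CPM. Pecam1 was not called, at 1.59 ± 0.50 and 1.12 ± 0.35 CPM. Kdr, Cdh5 and Emcn were too low to be tested, and Cdh5 and Emcn had 0 counts in all 3 Klf5-KO libraries. Immune markers summed to 18.9 to 36.7 CPM and 23.8 to 26.0 CPM, with none of the 7 called. Ly6a was below the fibroblast and smooth muscle, endothelial and immune sums in every library. The part of stromal, endothelial or immune cells in the Il33, Ccn2 and Ly6a values was not tested.

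Yap1, the coactivator itself, was nearly level. Its gene (ENSMUSG00000053110.13, chromosome 9, 7931999 to 8004596, minus strand, 12 exon blocks) stood at 121, 122 and 109 CPM across the controls and at 126, 130 and 129 CPM across the Klf5-KO libraries. The groups did not overlap but lay close together. The log2 fold change was 0.13 with a 95% interval of −0.05 to 0.31 (adjusted p = 0.26, edgeR). The interval holds no change and a rise of up to its upper bound.

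Wwtr1, which encodes the YAP paralogue TAZ, rose. Its gene (ENSMUSG00000027803.14, chromosome 3, 57455649 to 57575910, minus strand, 7 exon blocks) stood at 13.3, 14.8 and 13.8 CPM across the controls and at 25.6, 28.0 and 28.9 CPM across the Klf5-KO libraries. Both groups were tight and apart. The rise was 1.97-fold (log2 fold change of 0.98 with an SE of 0.10, adjusted p = 1.8e-04, edgeR). On a scale per exon length (TPM), the ratio of Yap1 to Wwtr1 level was 4.69, 4.25 and 4.08 across the controls and 2.54, 2.40 and 2.31 across the Klf5-KO libraries.

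Of the genes for their TEAD partners, Tead2 fell and Tead1 rose, while Tead3 and Tead4 were not called. Tead2 fell from 16.6, 18.0 and 16.5 CPM across the controls to 4.70, 4.14 and 3.72 CPM across the Klf5-KO libraries, a fall of 4.07-fold (log2 fold change of −2.03 with an SE of 0.13, adjusted p = 1.5e-05, edgeR). Tead1 rose from 54.3 ± 3.8 to 72.4 ± 6.0 CPM (log2 fold change of 0.42 with an SE of 0.09, adjusted p = 0.012, edgeR). Tead3 stood at 44.4 ± 1.0 and 47.8 ± 4.8 CPM, and Tead4 was scarce, at 0.853 ± 0.173 and 0.787 ± 0.142 CPM. Per exon length, Tead3 was the most abundant of the 4, at 26.0 ± 2.2 TPM in the controls, ahead of Tead1 at 10.3 ± 1.6 and Tead2 at 9.18 ± 1.10 TPM. In the libraries labelled Klf5-KO, Tead2 was at 2.10 ± 0.29 TPM, below every Tead1 value. The TEAD corepressor gene Vgll4 stood at 112 ± 12 and 95.1 ± 12.0 CPM (adjusted p = 0.17, edgeR). In this list of 8, 5 were tested, of which 1 rose and 1 fell, against 13.3% and 12.5% of all tested genes.

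**Figure D3:**
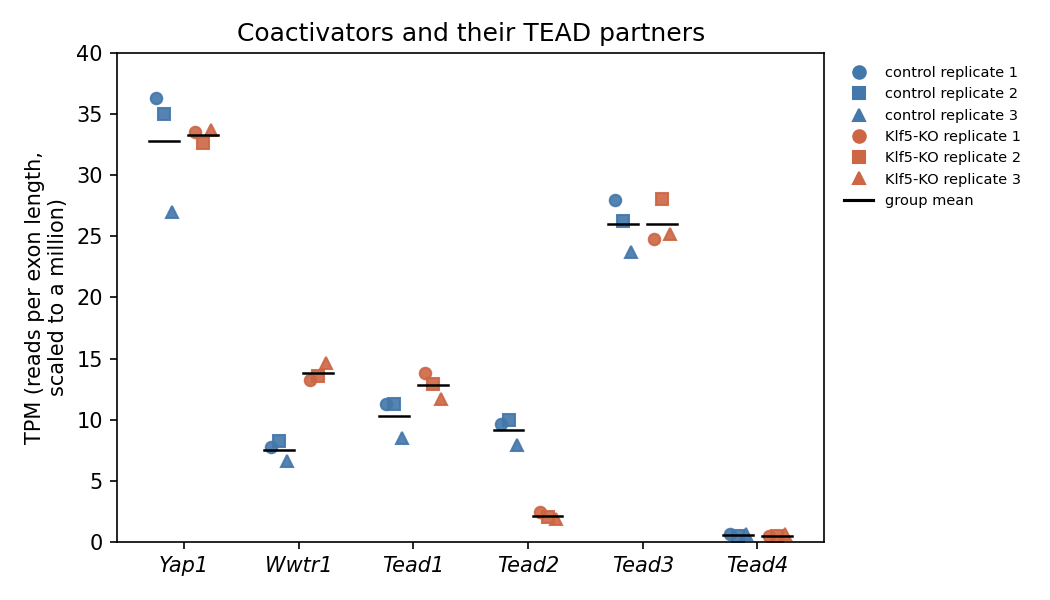
TPM, a level per exon length, of the coactivator genes Yap1 and Wwtr1 and of 4 TEAD genes in each of the 6 libraries, with symbols for replicates and a line at each group's mean. Wwtr1 is higher and Tead2 lower in all 3 Klf5-KO libraries, while the Yap1 and Tead3 values of the groups overlap on this scale.

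In the Hippo cascade, which restrains YAP and TAZ, most genes were not called. All 23 listed genes were tested, of which 2 rose and 3 fell, against 13.3% of all tested genes called higher and 12.5% called lower, with a median log2 fold change of −0.05 against −0.01 over all tested genes. Stk3, the kinase MST2, rose from 24.1 ± 4.0 to 37.9 ± 2.2 CPM (log2 fold change of 0.65 with an SE of 0.12, adjusted p = 0.0052, edgeR), and Wwc2, a scaffold of the KIBRA family, had a log2 fold change of 0.69. Amotl1, an angiomotin that holds YAP at junctions, fell from 11.3 ± 2.3 to 4.23 ± 1.82 CPM (log2 fold change of −1.42 with an SE of 0.28, adjusted p = 0.0059, edgeR). Map4k4, a kinase that can act on LATS, and Ajuba, a LIM protein that inhibits LATS, fell, with log2 fold changes of −0.43 and −0.66. Lats1 stood at 106 ± 9 and 115 ± 4 CPM and Nf2 at 104 ± 13 and 89.4 ± 1.9 CPM, neither of them called. The Wwc2 call was lost without control replicates 1 or 3 or Klf5-KO replicates 1 or 3 (adjusted p = 0.066, 0.057, 0.095 and 0.091), and that of Ajuba without control replicate 2 or Klf5-KO replicates 1, 2 or 3 (0.090, 0.057, 0.082 and 0.0503).

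Most other YAP and TAZ targets were not called. Of 23 listed targets, 18 were tested, of which 4 rose (Arhgef17, F3, Ccn2 and Asap1), 1 fell (Ajuba) and 13 were not called, with a median log2 fold change of 0.06. Over all tested genes 13.3% were called higher and 12.5% lower. Without Ccn1 and Ccn2 the counts were 3 risen and 1 fallen of 16, with a median of 0.03. Arhgef17, a guanine nucleotide exchange factor, stood at 6.13, 5.91 and 9.02 CPM across the controls and at 29.2, 32.7 and 26.4 CPM across the Klf5-KO libraries (log2 fold change of 2.07 with an SE of 0.17, adjusted p = 6.5e-05, edgeR). F3, tissue factor, which starts coagulation, rose from 2.86 ± 0.19 to 6.51 ± 0.76 CPM (log2 fold change 1.19, adjusted p = 8.7e-04, edgeR), and Asap1, a GTPase-activating protein of Arf, differed by 0.55 on the log2 scale (adjusted p = 0.017, edgeR). Amotl2 at 23.8 ± 3.1 and 24.2 ± 7.6 CPM and Crim1 at 49.1 ± 2.9 and 48.5 ± 6.0 CPM were not called. Their log2 fold changes had 95% intervals of −0.45 to 0.51 and −0.26 to 0.22. Klf5-KO replicate 2 was the lowest of its group for both, at 15.5 and 41.5 CPM. Ankrd1, Axl, Fjx1, Foxf2 and Ccdc80 were too low to be tested. The Asap1 call was lost without control replicate 2 or Klf5-KO replicate 1 (adjusted p = 0.075 and 0.081).

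**Figure D4:**
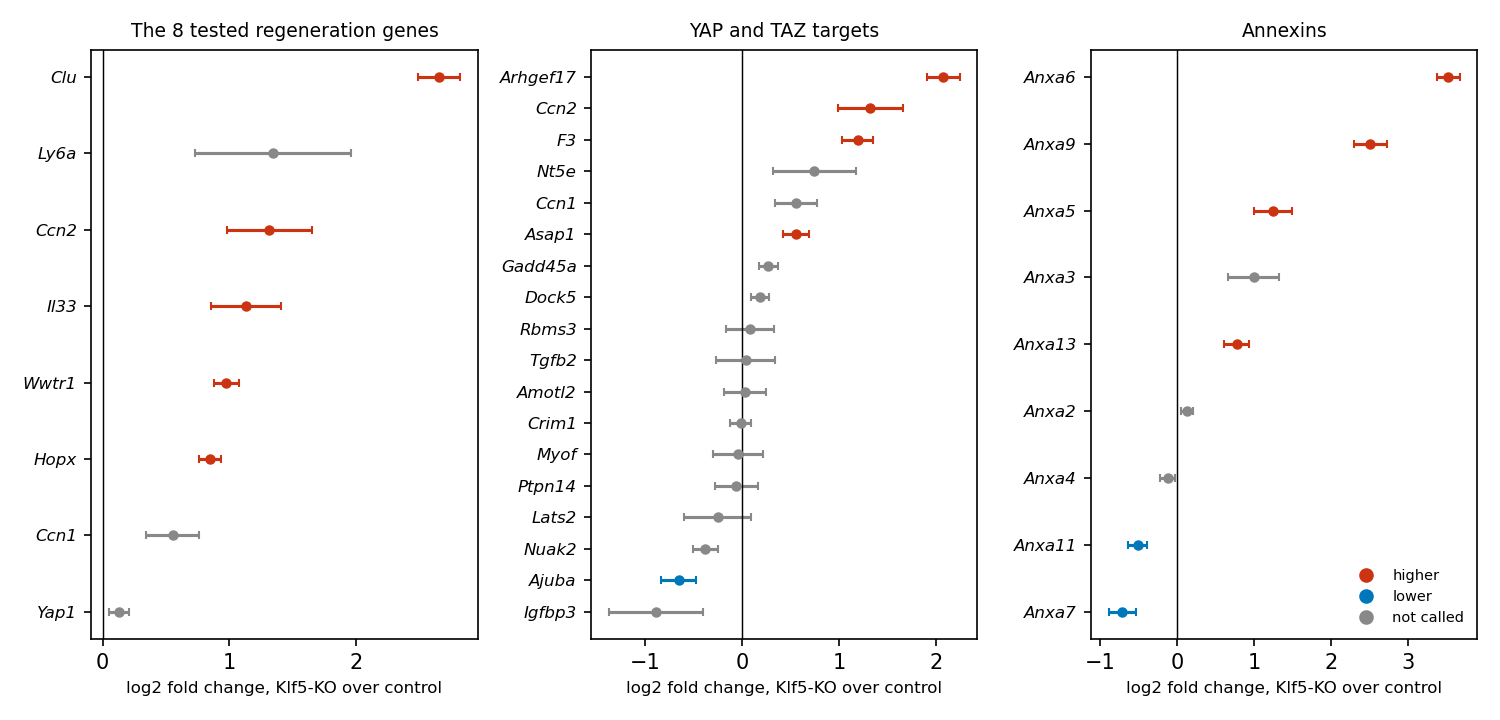
Log2 fold change of the libraries labelled Klf5-KO over the controls, with its standard error, for the 8 tested genes of the group, 18 tested YAP and TAZ targets and 9 tested annexins. Colours mark genes called higher, called lower or not called, and Clu, Arhgef17 and Anxa6 head their panels at 2.66, 2.07 and 3.52.

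Receptors for the secreted members were present in part. Il1rl1, the receptor of interleukin-33, and Fpr1 and Fpr2, receptors of annexin A1, were too low to be tested, as were Itgb3 and Trem2. Of 10 tested receptor genes, 3 rose and 2 fell, against 13.3% and 12.5% of all tested genes, with a median log2 fold change of 0.26. Itgav and Itgb1, integrin subunits through which CCN proteins bind cells, rose, with log2 fold changes of 0.47 and 0.42 (adjusted p = 0.0041 and 0.010, edgeR). Lrp1, an endocytic receptor that binds Ccn2, fell from 292 ± 16 to 132 ± 22 CPM (log2 fold change of −1.15 with an SE of 0.13, adjusted p = 3.1e-04, edgeR), and Itga6 differed by −0.40 on the log2 scale (adjusted p = 0.020, edgeR). Lrp2 (megalin), a clusterin receptor, was called higher from 0, 4 and 3 counts across the controls and 10, 17 and 11 counts across the Klf5-KO libraries, too few for a fold. It entered the test through its Klf5-KO counts, so its place among the 3 is no support for a difference, and with DESeq2 its adjusted p was 0.051. The calls of Itga6 and Lrp2 were lost without any 1 library other than control replicate 3 (adjusted p = 0.051 to 0.092 and 0.060 to 0.109).

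Per exon length, the order of the members in the controls was Hopx (136 ± 11 TPM), Ccn1 (122 ± 5), Yap1 (32.8 ± 5.0), Wwtr1 (7.53 ± 0.83), Clu (4.13 ± 0.38), Ccn2 (1.24 ± 0.38), Il33 (1.17 ± 0.34), Ly6a (0.553 ± 0.554) and Anxa1 (0.0453 ± 0.0408). Ccn2 and Il33 overlapped in the controls, as did Il33 and Ly6a, and the other neighbours in this order did not overlap. In the libraries labelled Klf5-KO, Clu moved ahead of Wwtr1, at 24.1 ± 5.1 against 13.8 ± 0.7 TPM with no overlap. Hopx (230 ± 16 TPM) and Ccn1 (170 ± 60 TPM) then overlapped, as did Ccn2 and Il33.

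For each called member, the 3 protein-coding genes with the most similar profile were found among 11957 candidates by the root mean square difference of log2 CPM profiles over the 6 libraries, each centred on its own mean. They were Tfr2, Pik3c2g and Plcd3 for Clu (differences of 0.13, 0.13 and 0.14), Sccpdh, Tsga10 and Klf5 for Hopx (0.01, 0.06 and 0.06), and Cyp3a13, Erich4 and Klf6 for Il33 (0.10, 0.11 and 0.13). For Ccn2 they were Ugt2b35, Sult1b1 and Btbd11 (0.23, 0.28 and 0.28), and for Wwtr1 Mfsd4b4, Pgrmc2 and Ckb (0.05, 0.05 and 0.06). These likenesses are descriptions over 6 libraries that share 2 groups.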

How the data were processed

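The files hold raw read counts per gene as deposited by the authors, 1 library each. The submitters' processing notes name STAR 2.5.2a, the build mm10 and DESeq2 1.18.1. The authors' counter, per the file headers, was featureCounts 1.4.3-p1 with GENCODE vM16, set to the reverse strand, with no option for pairs, multiple matches or overlapping genes. Symbols came from GENCODE vM21 (53274 of 53379 IDs). Genes were filtered with filterByExpr, scaled by TMM and compared with edgeR 4.0.16 in R 4.3.3 (quasi-likelihood F test, group as the only term, Benjamini-Hochberg over all 19339 tested genes, threshold 0.05). The SE is the log2 fold change over the square root of F, and its 95% interval uses the t distribution. TPM divides counts by exon length. Alternatives used DESeq2 1.42.0, limma 3.58.1, other scalings and filters, and left-out libraries. The test was checked on simulated data. Libraries of a group differed by more than sampling noise (chi-square statistic of at least 44.8 for each degree of freedom). The members and lists were chosen with earlier results of these data known. Genes were named by rule: all 9 members, up to 4 called genes per list and direction by smallest adjusted p, any that went against the rest, and the 3 nearest profiles. Uncalled, untested and marker genes named beside these were chosen after their values were seen.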

Additional observations from a re-analysis of the deposited data

How the results depend on the processing

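Across 16 alternatives (scaling, filter, tool, dispersion, block and left-out libraries; leaving out control replicate 3 and Klf5-KO replicate 2 together was added after seeing the data), Clu, Hopx and Wwtr1 stayed called higher, with log2 fold changes of 2.45 to 2.76, 0.79 to 0.89 and 0.94 to 1.03, and Yap1 stayed uncalled (0.08 to 0.16). No tested member changed sign. With 1 library left out in turn, the genes called higher numbered 1605 to 2740 and those called lower 1467 to 2664, against 2581 and 2413 on all libraries, and the members called higher numbered 3 to 6. Without a low-count filter Ccn1 (adjusted p = 2.8e-04) and Ly6a (0.014) were called too, and Anxa1 had a log2 fold change of 0.37 (0.86, edgeR). Over the alternatives the adjusted p ran from 2.3e-04 to 0.061 for Il33, from 2.5e-05 to 0.076 for Ccn2, from 2.8e-04 to 0.29 for Ccn1 and from 0.014 to 0.44 for Ly6a. Calls in the lists ran from 1 to 3 risen and 2 to 7 fallen for the Hippo cascade, 2 to 6 and 0 to 2 for YAP and TAZ targets, 3 to 8 and 3 to 4 for the fetal-like genes, 1 to 3 fallen for reserve markers, 1 to 2 fallen for TEAD factors, 0 to 2 risen for the CCN family, 1 to 3 risen for the Ly6 family, 0 to 2 fallen for annexins, and 2 to 4 and 1 to 3 for receptors. Whether the replicate numbers pair the libraries is not known. Same-numbered libraries had correlations of deviations of −0.01, 0.01 and −0.04, against −0.04 to 0.05 for differently numbered ones. With so few libraries these values cannot show that pairing is absent. With the replicate block, 2286 genes were higher and 2088 lower, 4 members were called higher and Ccn2 had an adjusted p of 0.052. The block also ended the calls of Wwc2 and Ajuba in the lists (adjusted p = 0.055 and 0.051, edgeR). Leaving out control replicate 3 and Klf5-KO replicate 2 together ended those of Ajuba, Tert and Lrp2 (adjusted p = 0.079, 0.081 and 0.090, edgeR). Low counts limit the values of Ly6a (4 to 60 counts per library) and Anxa1 (0 to 12).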
